A study of Mus musculus with 39 samples.

Results

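Spleens from mice labelled SXR/PXR knockout were set against wild-type spleens, both without PCB-153. All spleen libraries that the labels give as knockout with DMSO (5) or wild type with DMSO (4) were taken, which is 9 of the series' 39 samples. Of the 54735 genes counted, the 19058 with a mean normalised read count of at least 10 over all 19 spleens were tested. RNA sequencing was used to measure messenger RNA in 2 tissues, liver and spleen, of C57BL/6 mice that were 4 weeks old. The mice were SXR knockout or wild type and had been exposed from around birth to PCB-153, a persistent polychlorinated biphenyl dosed near 54 µg/kg/day, or to the vehicle DMSO alone. The groups used here are labelled knockout with DMSO (5 spleens) and wild type with DMSO (4 spleens), with spleens after PCB-153 (5 labelled knockout and 5 wild type) and DMSO livers (5 knockout and 5 wild type) beside them. The sources used here do not say how the knockout allele was made or which exons it lacks. Separate animals or litters are not stated for the libraries, so a p-value reflects the spread between these samples alone.

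SXR, also called PXR, is a nuclear receptor encoded by Nr1i2 that binds steroids, bile acids and many foreign chemicals. Paired with a retinoid X receptor, it switches on genes for drug oxidation, conjugation and transport, and it is best known from liver and intestine. In immune cells it is known for a mutual restraint with the inflammatory factor NF-kB. The spleen filters blood through macrophages that take up old red cells, holds B and T lymphocytes in its white pulp, and in young mice still makes red cells, neutrophils and megakaryocytes in its red pulp.

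The labelled tissue matched its markers. The B cell receptor subunit gene Cd79a had normalised read counts of 5975 to 7833 in labelled knockout and 5964 to 6687 in wild-type spleens. Spic, the transcription factor gene of red pulp macrophages, had 1030 to 1244 in labelled knockout and 849 to 1040 in wild type. Libraries held 18.1 to 21.8 M reads in labelled knockout and 17.4 to 24.0 M in wild type. All 9 carried the male pattern, with Xist at 2.2 to 13.7 and Y-linked Eif2s3y at 960 to 1290. Marker genes of neighbouring organs varied between libraries of both groups: the summed level of 16 hepatocyte genes was 102 to 16250 in labelled knockout and 127 to 2064 in wild-type spleens, with labelled knockout replicate 4 at the top. Wild-type replicates 3 and 5 had the highest average level of cell division genes of all 9 libraries, and wild-type replicate 4 the lowest of its group. Red cell genes averaged highest in wild-type replicate 3, followed by labelled knockout replicate 1 and wild-type replicate 5.

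Nr1i2, the targeted gene, was counted in every spleen labelled knockout and was nearly absent from wild type. It is encoded on the minus strand at chr16:38248323-38294824 (GRCm38). Its normalised read counts were 42.9, 54.8, 61.7, 62.8 and 55.45 in labelled knockout, against 0, 0, 2.27 and 0 in wild-type spleens. Every labelled knockout library was therefore above every wild-type library, and the log2 fold change came to 5.38 ± 0.39 (SE, adjusted p = 9.42e-08 by limma). These levels rest on 288 reads in labelled knockout and 3 in wild type, a ratio of 76 with an exact 95% interval of 25.7 to 370 that covers counting error only. The direction is the opposite of what the labels name. Counts were made per gene, so reads from exons that a knockout allele keeps and reads from a complete transcript cannot be told apart. An exchange of spleen labels was not tested, and every direction below rests on them. In liver, knockout had 714 ± 192 and wild type 1572 ± 178 (SD, n = 5 each), a log2 fold change of -1.18 (limma adjusted p = 0.00415). The stretch around the annotated start of Nr1i2 is shown because this gene carried the largest difference. It runs from 250 bases before to 50 after the start (RefSeq, GRCm38.p6, chr16:38294775-38295074, minus strand) and would carry capitals at AGGTCA or AGTTCA, hexamers bound by nuclear receptors, on either strand. It held 0 of either, while 16.3% and 14% of all 32851 promoter windows of this length held them.
Nr1i2 promoter: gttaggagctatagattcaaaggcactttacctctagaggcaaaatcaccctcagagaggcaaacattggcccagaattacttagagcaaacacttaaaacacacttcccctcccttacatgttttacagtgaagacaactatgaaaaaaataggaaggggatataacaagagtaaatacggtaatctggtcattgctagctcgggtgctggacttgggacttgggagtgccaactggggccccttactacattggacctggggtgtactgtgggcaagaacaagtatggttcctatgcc

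Besides Nr1i2, 5 genes passed the limma test with Benjamini-Hochberg adjustment over all 19058, so that 6 genes or 0.0315% were called, 4 higher and 2 lower in labelled knockout. Of the 6, 5 lie on chromosome 16. Pla1a encodes a phospholipase that acts on phosphatidylserine. Its counts were 39.6, 57.6, 77.9, 66.4 and 37.9 in labelled knockout, against 8.79, 12.5, 11.3 and 4.49 in wild type. The groups did not overlap, and Pla1a rose by 2.49 ± 0.27 on the log2 scale (SE, limma adjusted p = 5.66e-05). Ift57, a component of the transport trains that build cilia, stood at 378.5, 308.9, 332.7, 286.1 and 281.9 in labelled knockout, against 138.5, 171.2, 117.2 and 153.9 in wild type. The lowest labelled knockout spleen was well above the highest wild-type spleen, with a rise of 1.13 ± 0.11 (limma adjusted p = 8.10e-06).

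Dubr and Cd96 fell. Dubr is a long noncoding RNA, and its counts were 57.2, 75.0, 68.8, 64.6 and 73.0 in labelled knockout, against 170.4, 130.5, 179.9 and 129.2 in wild type. All 5 labelled knockout values were below all 4 wild-type values, a difference of -1.15 ± 0.15 on the log2 scale (SE, limma adjusted p = 8.35e-04). Cd96, a receptor of T and natural killer cells, stood at 86.9, 83.2, 87.0, 60.0 and 100.7 in labelled knockout, against 182.5, 129.5, 149.7 and 174.1 in wild type. Here too the groups did not overlap (-0.93 ± 0.15, limma adjusted p = 0.0194). The call for Cd96 was lost without labelled knockout replicate 2 or 4 or wild-type replicate 1 or 5, with adjusted p up to 0.163.

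Rdh16f1, a gene of the retinol dehydrogenase family on chromosome 10, was the sole called gene off chromosome 16. Its counts were 67.1, 79.5, 80.9, 82.1 and 74.85 in labelled knockout, against 33.0, 45.9, 48.4 and 35.95 in wild type. The groups did not overlap, and the rise was 0.91 ± 0.16 (SE, limma adjusted p = 0.0340). The gene cannot be counted apart with certainty: 100% of the 50-base words of its transcripts occur in other genes, 87.9% of them in Rdh9. Rdh9, chosen after its values were seen, had 57.8 ± 9.96 in labelled knockout and 33.4 ± 6.77 in wild type (SD, n = 5 and 4, log2 fold change 0.78, limma adjusted p = 0.239). Rdh1, chosen likewise, shares 15.6% of its words with other genes, 11.7% with Rdh16f1. It was not called in the full fit but was among 22 calls without wild-type replicate 4 (1.06, limma adjusted p = 0.0472). Leaving out labelled knockout replicates 2 to 5 in turn, or wild-type replicate 1 or 5, ended the call for Rdh16f1, with adjusted p up to 0.246.

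**Figure D1:**
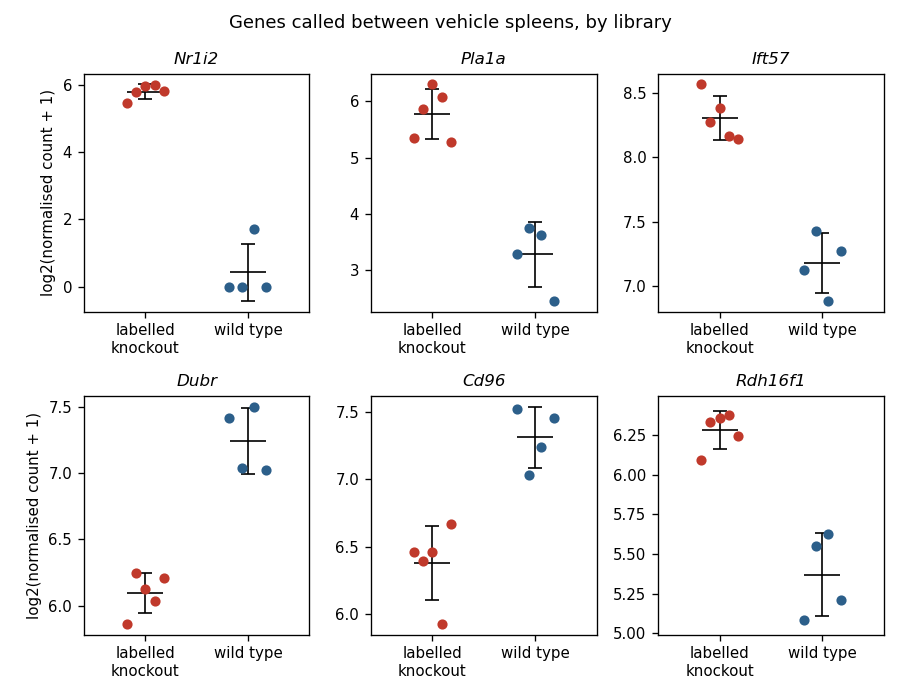
Normalised read counts of the 6 genes called by limma, as log2(value + 1), in 5 labelled knockout (left) and 4 wild-type (right) vehicle spleens; points are libraries and bars the mean ± SD. In each panel the groups do not overlap, and Nr1i2 is at 0 in 3 of the 4 wild-type libraries.

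The number of calls depended on the tool. With edgeR on the recovered reads 6 genes were called, the same 6, while DESeq2 called 39 of 17552 (0.222%), of which 27 were higher and 12 lower. The authors' deposited table lists 24 of 25180 genes (0.0953%) at an adjusted p under 0.05, and all 6 are among its 24 and among the 39. At an unadjusted p under 0.05, 1150 genes (6.03%) were higher and 848 (4.45%) lower in labelled knockout, 10.5% of all tested together, and the median log2 fold change over all tested genes was 0.01. These shares are the background for every group of genes below. The share of all tested genes whose groups do not overlap was not counted. A lack of overlap, above or below, therefore describes the named genes, many of them chosen by a small p, and is no added support.

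Around Nr1i2 on chromosome 16, calls were spread over a wide stretch while most genes between them were not called. Of 163 other tested genes within 15 Mb, 4 were called by limma and 26 (16%) had an unadjusted p under 0.05. On the rest of chromosome 16 none of 375 genes was called and 10.7% had such a p, and on other chromosomes 1 of 18396 was called and 10.4% had such a p. The called genes lay 0.138 Mb (Pla1a), 7.83 Mb (Cd96), 11.4 Mb (Ift57) and 12.4 Mb (Dubr) from the start of Nr1i2 in the direction of rising coordinates. Within 1 Mb of Nr1i2, Pla1a was the sole call among 22 tested genes, and 3 of the 22 had an unadjusted p under 0.05. The nearest genes on either side, Cox17 and the kinase gene Gsk3b, differed by -0.09 and 0.16. On either side of Pla1a, Popdc2 differed by 0.26 and Adprh by -0.04, and Lrrc58 differed by 0.20, none of them called. The median size of the log2 change within 1 Mb was 0.149, against 0.118 on other chromosomes.

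Other chromosome 16 genes were called in the authors' deposited table but not by limma. Cd200, a membrane protein that restrains myeloid cells, had 794.3, 892.1, 878.7, 792.7 and 939.8 in labelled knockout, against 591.4, 569, 610 and 507.8 in wild type. The groups were far apart (log2 fold change 0.59 ± 0.11, limma adjusted p = 0.0624, authors' adjusted p = 0.00107), and limma called the gene without wild-type replicate 4 (adjusted p = 0.0452). Without that replicate 22 genes were called in all, against 6 in the full fit. Such gains, here and below, are picked from leaving out each library in turn and are not added support. The cell adhesion gene Nectin3 had 130.0 ± 16.6 in labelled knockout and 80.8 ± 16.9 in wild type (SD, n = 5 and 4, log2 fold change 0.70, limma adjusted p = 0.200). A further 3 genes of that table lay below the mean of 10. Limma without that filter called all 3, with 9 calls in all. Cfap44, a gene of motile cilia, had 72 reads in labelled knockout and 2 in wild type, a ratio of 28.5 (exact 95% interval 7.6 to 240). The sodium exchanger gene Slc9c1 had 43 reads in labelled knockout and 1 in wild type, a ratio of 34 (5.79 to 1370). Tagln3, which encodes an actin-binding protein of neurons, ran the other way, with 4 reads in labelled knockout and 41 in wild type and normalised counts of 0 to 1.85 and 8.35 to 12.1.

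Gm7887 on chromosome 6, which the authors' table also lists, shares most of its sequence with other genes. It had 530.3, 500.9, 476.3, 468.8 and 475 in labelled knockout, against 376, 355, 325 and 339.3 in wild type. No library crossed the gap (log2 fold change 0.49 ± 0.09, limma adjusted p = 0.0851). Of its 50-base words, 86.9% also occur in Pcnp, on chromosome 16 and 17.7 Mb from Nr1i2, and Zfp862-ps shares words as well, so its reads cannot be assigned with certainty. Pcnp itself, chosen after its values were seen, had 1606 ± 41.7 in labelled knockout and 1724 ± 212 in wild type (SD, n = 5 and 4, log2 fold change -0.09, limma adjusted p = 0.702).

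**Figure D2:**
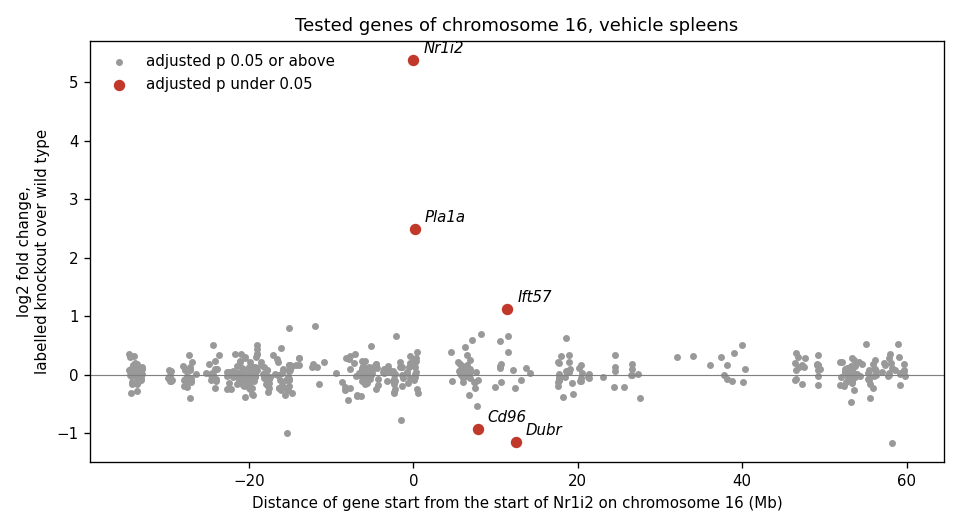
Log2 fold change (labelled knockout over wild type, vehicle spleens) of every tested chromosome 16 gene against the distance of its start from the start of Nr1i2 in Mb; called genes are named. Calls reach from Nr1i2 at 0 Mb, with a log2 fold change of 5.38, to Dubr at 12.4 Mb. Most genes between them have a log2 fold change near 0.

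Neutrophil and myeloid precursor genes had lower means in labelled knockout spleens, without any of them being called by limma. Of 25 genes tested, 21 had a lower and 4 a higher mean, 17 had an unadjusted p under 0.05 in the lower direction and 1 in the higher, against 4.45% and 6.03% of all genes. The median log2 fold change was -0.60, against 0.01 over all genes, and stayed between -0.72 and -0.53 when any 1 library was left out. Averaged over the 25 genes, log2 levels were 7.10, 7.08, 6.85, 6.78 and 6.98 in labelled knockout, against 7.46, 7.20, 7.64 and 7.44 in wild type, with no overlap. List averages also did not overlap, with labelled knockout higher, for the monocyte and dendritic cell, receptor and mitochondrially encoded genes given below. A lack of overlap is thus not particular to the neutrophil list. In bulk tissue, fewer cells of a type and less RNA per cell cannot be told apart. The summed level of hepatocyte genes was highest in labelled knockout replicate 4 and wild-type replicate 1. Cell division genes, which precursors also express, were highest in wild-type replicates 3 and 5, while the neutrophil average was lowest in replicate 3 among wild types; their part in the result was not tested.

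The promoters of the neutrophil genes are shown here because these genes had lower means together and their class is known to be driven by C/EBP factors and PU.1. Windows run from 250 bases before to 50 after the start (RefSeq, GRCm38.p6). Capitals mark TTGCNNAA, a C/EBP-type motif, and GAGGAA, a PU.1-type motif (TTCCTC on the other strand), both searched on both strands. The windows are S100a8 at chr3:90668821-90669120 (plus strand), S100a9 at chr3:90695672-90695971 (minus strand), Ngp at chr9:110419558-110419857 (plus strand) and Ltf at chr9:111019042-111019341 (plus strand).
S100a8 promoter: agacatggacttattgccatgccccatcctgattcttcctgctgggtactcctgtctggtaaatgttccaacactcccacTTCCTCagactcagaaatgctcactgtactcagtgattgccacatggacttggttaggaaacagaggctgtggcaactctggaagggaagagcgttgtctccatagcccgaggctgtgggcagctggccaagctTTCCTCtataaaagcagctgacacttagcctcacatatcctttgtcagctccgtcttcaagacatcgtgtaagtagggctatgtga
S100a9 promoter: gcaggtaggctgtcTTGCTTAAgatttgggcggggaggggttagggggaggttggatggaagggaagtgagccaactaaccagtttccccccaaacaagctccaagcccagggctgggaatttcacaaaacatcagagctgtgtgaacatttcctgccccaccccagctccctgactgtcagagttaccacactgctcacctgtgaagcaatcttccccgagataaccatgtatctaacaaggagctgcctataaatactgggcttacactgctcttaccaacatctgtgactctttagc
Ngp promoter: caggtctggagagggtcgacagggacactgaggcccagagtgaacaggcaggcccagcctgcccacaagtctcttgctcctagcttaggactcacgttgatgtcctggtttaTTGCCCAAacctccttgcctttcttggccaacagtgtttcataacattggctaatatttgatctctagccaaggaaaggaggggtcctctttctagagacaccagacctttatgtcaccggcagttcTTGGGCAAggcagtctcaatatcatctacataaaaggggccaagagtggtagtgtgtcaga
Ltf promoter: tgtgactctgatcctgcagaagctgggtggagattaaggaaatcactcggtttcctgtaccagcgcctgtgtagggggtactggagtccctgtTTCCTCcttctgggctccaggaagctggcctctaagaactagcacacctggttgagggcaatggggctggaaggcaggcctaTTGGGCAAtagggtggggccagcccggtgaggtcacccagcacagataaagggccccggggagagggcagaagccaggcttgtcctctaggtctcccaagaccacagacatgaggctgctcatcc
TTGCNNAA occurred in 9 of the 23 neutrophil genes with a window, against 10.8% of all 32851 windows, and GAGGAA in 15 of 23, against 28.3%. AGGTCA occurred in 6 and AGTTCA in 3 of the 23, against 16.3% and 14%. A gene was counted if any of its windows matched, while the background counts single windows, so the shares are not strictly alike. A match is a run of letters and was not tested for binding.

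S100a8 and S100a9 encode the subunits of calprotectin, a major protein of neutrophil cytoplasm. S100a9 had 1443, 1384, 1363, 1025 and 1205 in labelled knockout, against 2459, 1659, 2157 and 2404 in wild type. Every labelled knockout value was below every wild-type value (log2 fold change -0.75 ± 0.15 SE, limma adjusted p = 0.110, authors' adjusted p = 0.00159). Without wild-type replicate 3, its lowest wild-type library, limma called the gene (-0.87, adjusted p = 0.0368). S100a8 had 736 ± 149 in labelled knockout and 1086 ± 131 in wild type (SD, n = 5 and 4, log2 fold change -0.58, limma adjusted p = 0.239), also without overlap.

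Granule genes of early and late stages had the same order. Mpo, the myeloperoxidase of primary granules, had 352, 409.5, 316.5, 292.5 and 524 in labelled knockout, against 634, 518, 734 and 664 in wild type. Here 1 labelled knockout library, replicate 5, reached above the lowest wild-type library (-0.77 ± 0.17, limma adjusted p = 0.204), and without that library Mpo was called (-0.89, adjusted p = 0.0337). Over all genes, 9 were called without that library, against 6 in the full fit. Camp, the cathelicidin of secondary granules, had 301, 349, 291, 250 and 301 in labelled knockout, against 499, 404, 556 and 549 in wild type. These did not overlap (-0.74 ± 0.18, limma adjusted p = 0.239). Lactoferrin (Ltf) differed by -0.81 and neutrophilic granule protein (Ngp) by -0.77, both with a limma adjusted p of 0.302 and no overlap. DESeq2 called 4 of the 25 genes, and the authors' table lists S100a9, Mpo and Camp.

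Not every neutrophil gene was lower. Cebpe, the factor that drives late granule genes, differed by -0.18. The 4 genes with a higher mean, named after their values were seen, were Stfa2l1 (0.65), Retnlg (0.58), the chemokine receptor gene Cxcr2 of mature neutrophils (0.22) and Mcemp1 (0.03). Stfa2l1 and Retnlg lie on chromosome 16, at -2.14 and 10.6 Mb from the start of Nr1i2. Whether their place near Nr1i2 plays a part was not tested.

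After PCB-153 the order was not there. In those 10 other spleens, 24 of the 25 genes had a higher mean in labelled knockout, with a median of 0.21. S100a9 had 2063 ± 451 in labelled knockout and 1745 ± 165 in wild type after PCB-153 (SD, n = 5 each, log2 fold change 0.21, limma adjusted p = 0.626). The test of the difference between exposures gave S100a9 an unadjusted p of 0.000126 and a limma adjusted p of 0.417, equal to the smallest of any gene. Of the 25 genes, 19 had an unadjusted p under 0.05 with a more negative difference under vehicle, against 3.83% of all genes. No gene was called in that test by limma or edgeR (1877 and 1804 genes at an unadjusted p under 0.05), while DESeq2 called 34, including S100a9 (adjusted p = 0.00346), Camp (0.0134), Chil3 (0.0494) and Elane (0.0494). The same 34 hold 10 genes of the pancreatic list, whose median difference between genotypes was 4.65 after PCB-153 and 0.01 under vehicle. Further pancreatic genes outside that list, named after their values were seen, are also among the 34: Try10, Reg2, Amy2a2, Amy2a3, Amy2a4 and Pnliprp2. Under vehicle that list averaged 1.90 to 2.33 in labelled knockout and 1.95 to 2.13 in wild type as log2(value + 1). These levels are close to the floor, so the vehicle median says little about these genes.

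**Figure D3:**
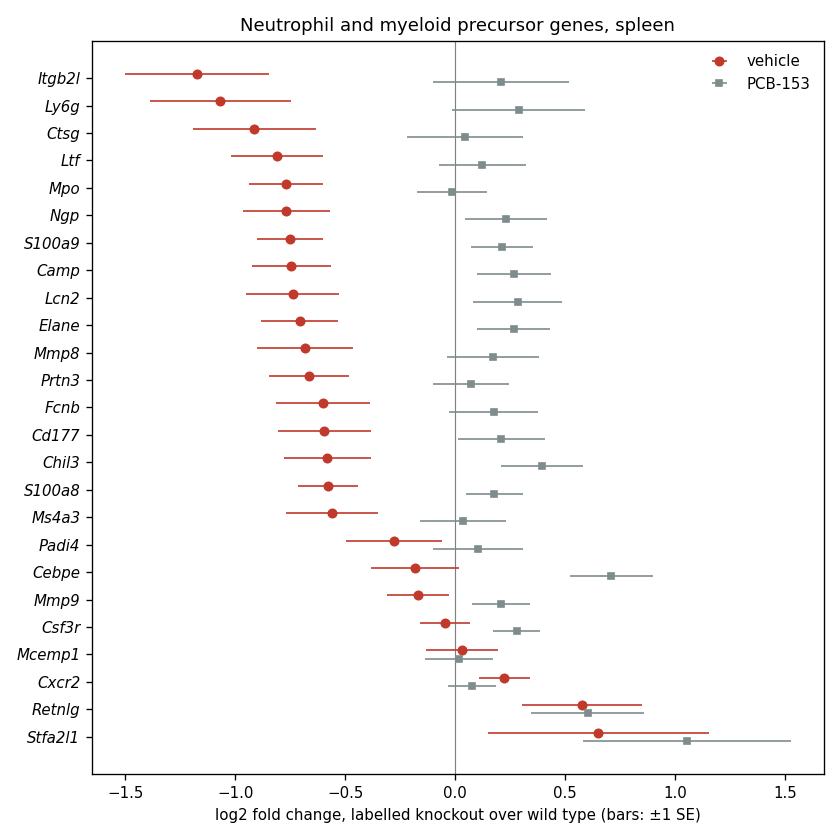
Log2 fold change (labelled knockout over wild type) of the 25 neutrophil and myeloid precursor genes under vehicle (circles) and after PCB-153 (squares), bars ± 1 SE. Under vehicle 21 genes lie below 0, and after PCB-153 24 lie above it.

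Macrophage genes mostly had higher means. Of 21 genes of splenic macrophages and iron recycling, 19 had a higher mean in labelled knockout and 10 had an unadjusted p under 0.05, all higher, with a median log2 fold change of 0.24 and none called by limma. Leaving out 1 library at a time gave 4 to 11 such genes, with 4 without labelled knockout replicate 2 or wild-type replicate 3, and medians of 0.18 to 0.30. Marco, the scavenger receptor of marginal zone macrophages, had 3405, 3323, 2955, 3364 and 2075 in labelled knockout, against 1422, 1714, 1978 and 1700 in wild type. Replicate 5 of the labelled knockout was close to the wild types but still above them (0.81 ± 0.17 SE, limma adjusted p = 0.160, authors' adjusted p = 0.00525), and without it Marco was called (0.94, adjusted p = 0.0211). Cd209b, also called SIGN-R1, a lectin of the same macrophages that binds polysaccharides, had 272 ± 55.7 in labelled knockout and 147 ± 46.2 in wild type (SD, n = 5 and 4, log2 fold change 0.90, limma adjusted p = 0.239), and its groups overlapped through wild-type replicate 4. Without that replicate Cd209b was called (1.10, adjusted p = 0.0472).

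Red pulp macrophage genes differed less. Spic had 1135 ± 85.4 in labelled knockout and 946 ± 78.9 in wild type (SD, n = 5 and 4, log2 fold change 0.26, limma adjusted p = 0.443), with overlap. Hmox1, the haem oxygenase that opens the haem ring, had 4919, 5235, 4483, 4481 and 4223 in labelled knockout, against 3772, 3661, 3778 and 3988 in wild type. The groups did not overlap, but the fold change was small (0.29 ± 0.14, limma adjusted p = 0.482). Adgre1, which encodes F4/80, differed by 0.22 and the complement gene C1qa, named after its value was seen, by 0.03. The macrophage median after PCB-153 was also 0.24.

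In the monocyte and dendritic cell list, the largest differences were in the single genes Siglech, Cd209a and Flt3. Single genes do not by themselves name a cell type. Of 20 genes, 16 had a higher mean and 5 an unadjusted p under 0.05, all higher, with a median of 0.13. Siglech, a lectin of plasmacytoid dendritic cells, had 582, 613.3, 440.9, 623.8 and 391.8 in labelled knockout, against 234.2, 267.3, 329.6 and 238.2 in wild type. The groups did not overlap (0.97 ± 0.19 SE, limma adjusted p = 0.0854, authors' adjusted p = 0.00115). Limma called Siglech without labelled knockout replicate 5 (1.08, adjusted p = 0.0337) and without wild-type replicate 4 (1.08, adjusted p = 0.0423). After PCB-153 Siglech had 319 ± 96.1 in labelled knockout and 273 ± 41.2 in wild type (SD, n = 5 each), and the test of the difference between exposures gave an unadjusted p of 0.00595.

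Clec10a, a galactose lectin of dendritic cells and macrophages that the authors' table lists, had 74.8, 108.8, 77.9, 117.2 and 52.7 in labelled knockout, against 44.0, 41.8, 35.5 and 32.6 in wild type. Again no library crossed over (1.10 ± 0.26 SE, limma adjusted p = 0.239). Cd209a, the lectin of type 2 dendritic cells, differed by 0.60 (limma adjusted p = 0.302) and Flt3, the growth factor receptor that dendritic cells need, by 0.45 (limma adjusted p = 0.347), both without overlap. Apol7c, an apolipoprotein L gene of dendritic cells, had 937 ± 133 in labelled knockout and 628 ± 67.4 in wild type (SD, n = 5 and 4, log2 fold change 0.57, limma adjusted p = 0.239). The conventional type 1 markers Xcr1 and Clec9a, named after their values were seen, differed by 0.07 and 0.18.

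**Figure D4:**
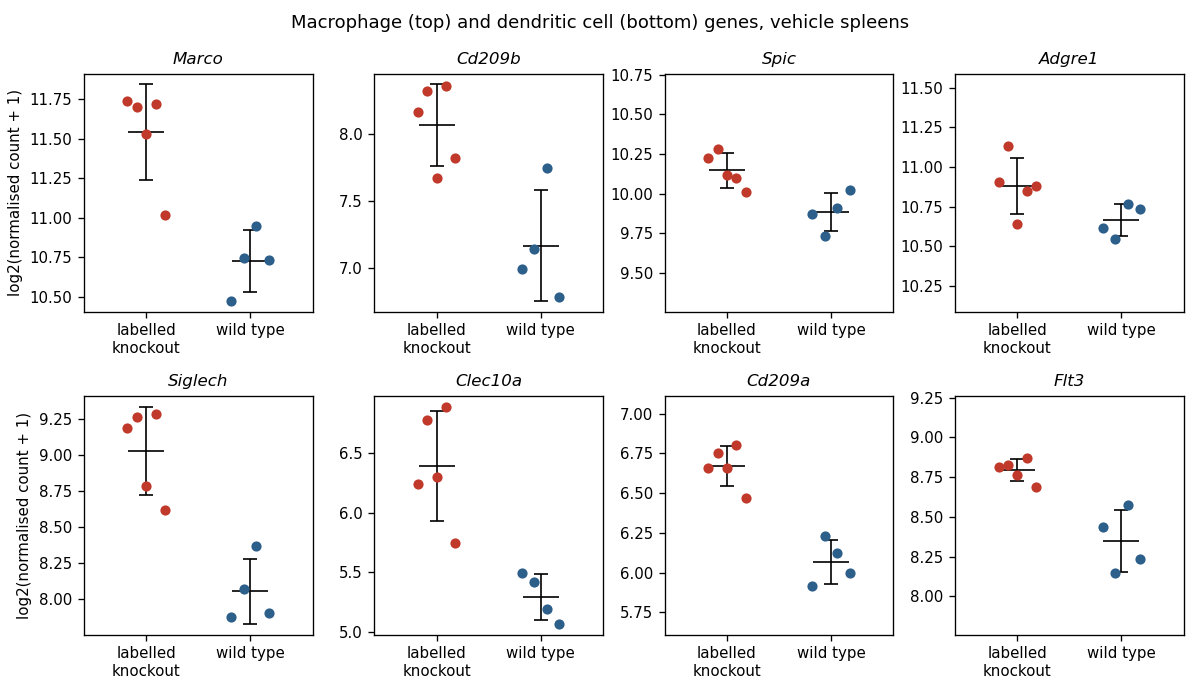
Normalised read counts, as log2(value + 1), of macrophage and dendritic cell genes in 5 labelled knockout (left) and 4 wild-type (right) vehicle spleens; points are libraries and bars the mean ± SD. Marco and Siglech do not overlap between groups, and Cd209b does.

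Among lymphocyte genes, Cd96 was the sole call. The 18 B cell genes had a median of 0.01 with none at an unadjusted p under 0.05, and the 24 T cell genes a median of -0.14 with Cd96 as the sole gene at such a p. Cd3e, a chain of the T cell receptor complex, had 589 ± 80.9 in labelled knockout and 606 ± 56.6 in wild type, and Cd8a had 862 ± 118 in labelled knockout and 999 ± 79.0 in wild type (SD, n = 5 and 4). Labelled knockout replicate 5 had the highest Cd79a, Cd3e and Cd8a of its group, at 7833, 732 and 1067. Cd96 fell by 0.93, where the median of its list was -0.14. Foxp3, the factor of regulatory T cells, differed by -0.17. Of 19 natural killer and cytotoxic genes, 8 had a higher and 11 a lower mean; Klrd1, the CD94 receptor chain, differed by 0.37, granzyme A (Gzma) by -0.63 and the receptor gene Ncr1 by -0.26.

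Among plasma cell genes, Igha had the largest difference. Igha, the constant region of IgA, had 2595, 4135, 2873, 2416 and 822 in labelled knockout, against 1032, 754, 964 and 435 in wild type. Replicate 5 of the labelled knockout lay within the wild-type range, the other 4 far above it (1.59 ± 0.44 SE, limma adjusted p = 0.331). After PCB-153 Igha had 2518 ± 1608 in labelled knockout and 472 ± 125 in wild type (SD, n = 5 each, log2 fold change 2.18, limma adjusted p = 0.0373). The joining chain gene Jchain differed by 0.35 under vehicle, while the 14 plasma cell genes had a median of 0.04.

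Of 12 mast cell and basophil genes, 9 had a higher and 3 a lower mean, with a median of 0.16, and 1 higher and 2 lower had an unadjusted p under 0.05. The 2 lower ones were Prss34 and Mcpt8, proteases of basophils, which differed by -0.97 and -0.92. The groups did not overlap for either, though for Mcpt8 the nearest libraries were at 12.0 in labelled knockout and 12.1 in wild type. Only 3 of the 12 genes had a lower mean, so these 2 do not describe basophil genes as a whole. Mcpt4, a chymase of connective tissue mast cells, had 29.5 ± 14.5 in labelled knockout and 10.9 ± 4.38 in wild type (SD, n = 5 and 4, log2 fold change 1.32, limma adjusted p = 0.353). Platelet genes had lower means throughout: all 17 megakaryocyte and platelet genes had a lower mean, 4 of them at an unadjusted p under 0.05, with a median of -0.22. Leaving out 1 library at a time gave 3 to 12 such genes, with 12 without wild-type replicate 3 and 8 without labelled knockout replicate 5. In the PCB-153 spleens 16 of the 17 genes had a lower mean and 1 a higher one, with a median of -0.32. The platelet chemokine gene Pf4 had 483 ± 75.5 in labelled knockout and 650 ± 50.7 in wild type (SD, n = 5 and 4, -0.44, limma adjusted p = 0.353).

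None of the genes that SXR is known to switch on in liver was called in spleen. Of 16 tested, 11 had a higher and 5 a lower mean, with a median of 0.12, and 2 higher and 1 lower had an unadjusted p under 0.05. The median was 0.08 without labelled knockout replicate 4 and 0.20 without labelled knockout replicate 5. Averaged over the list, labelled knockout replicate 4, the library with the highest hepatocyte genes, stood at 8.38, against 7.21 to 7.39 in the other 4 and 7.09 to 7.86 in wild type. Papss2, which makes the sulfate donor for conjugation, had 214 ± 24.9 in labelled knockout and 172 ± 23.3 in wild type (SD, n = 5 and 4, log2 fold change 0.32, limma adjusted p = 0.435), while in liver it differed by 1.25 (limma adjusted p = 0.000163). The fatty acid carrier gene Cd36 differed by 0.28, the retinal dehydrogenase gene Aldh1a1 by -0.24 and the drug pump gene Abcb1a by 0.25. A further 12 genes of the list, among them Cyp2b10 and Cyp2c55, had means below 10 and were not tested.

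Among the partner and sister receptors, Nr1i2 was the sole call. Of 17 genes 13 had a higher mean, with a median of 0.13. Rxra, the partner of SXR, had 1535 ± 135 in labelled knockout and 1227 ± 158 in wild type (SD, n = 5 and 4, log2 fold change 0.33, limma adjusted p = 0.417), and Ahr, the dioxin receptor, differed by 0.30 (limma adjusted p = 0.378). The 25 NF-kB target genes had 12 higher and 13 lower means and a median of -0.01. Nfkbia, the inhibitor that NF-kB induces against itself, differed by 0.05, and the cytokine gene Il1b by 0.36 as the sole gene of that list with an unadjusted p under 0.05.

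Several lists had small differences in 1 direction, and their counts changed with single libraries. All 30 cell division genes had a lower mean (median -0.26, 5 at an unadjusted p under 0.05), but none had such a p without wild-type replicate 3 or without replicate 5, and 17 had it without replicate 4. Cdc20, an activator of the anaphase-promoting complex, had 1445, 1331, 1335, 1323 and 1312 in labelled knockout, against 1538, 1969, 1331 and 2024 in wild type. Wild-type replicates 3 and 5 were far above the other 7 libraries. Of 44 interferon response genes, 39 had a lower mean (median -0.19, 9 at such a p), which came to 0 without wild-type replicate 3 and 15 without labelled knockout replicate 5. The immunity-related GTPase gene Irgm1 had 1374 ± 139 in labelled knockout and 1735 ± 320 in wild type (SD, n = 5 and 4, log2 fold change -0.32, limma adjusted p = 0.420). The 33 red cell genes had a median of -0.11 with none at such a p. Without wild-type replicate 4 their median was -0.24 with 9 lower at such a p, and without wild-type replicate 3 it was -0.02. In the PCB-153 spleens 38 of the 44 interferon response genes again had a lower mean (median -0.22). There 23 of the 30 cell division genes and all 33 red cell genes had a higher mean (medians 0.098 and 0.265).

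Mitochondrial transcripts and the nuclear genes for the same complexes stood on opposite sides of 0. All 13 mitochondrially encoded genes had a higher mean (median 0.24, 6 at an unadjusted p under 0.05), and 40 of 41 nuclear respiratory chain genes a lower one (median -0.13, 10 at such a p). mt-Atp8, a subunit gene of ATP synthase, had 12190, 12480, 11430, 13040 and 13140 in labelled knockout, against 9824, 9232, 9560 and 5296 in wild type. Wild-type replicate 5 was far below the rest, and without it the median of the 13 genes was 0.10. The count of nuclear genes came to 1 without wild-type replicate 3 and 23 without replicate 4. The 64 ribosomal protein genes had a median of -0.08, with 3 at such a p. Without wild-type replicate 4 the ribosomal median was -0.16 and 28 genes had such a p, and without replicate 3 or 5 none had.

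Markers of tissue next to the spleen, and separately of melanocytes, varied widely between libraries within both groups. The 16 hepatocyte genes had summed levels of 201, 102, 204, 16250 and 237.5 in labelled knockout, against 2064, 201.5, 782 and 127 in wild type. A single library, labelled knockout replicate 4, was far above the others, and the list's median of -0.30 came to -1.86 without it. The summed level of the 23 tested pancreatic genes was flat, at 622 to 755 in labelled knockout and 626 to 723.5 in wild type. Their average log2(value + 1) was 1.90 to 2.33 in labelled knockout and 1.95 to 2.13 in wild type. The sums therefore rest mainly on a few members, and Prss1, not tested, was at 0 in all 9 libraries. The authors' deposited table gives the pancreatic gene Clps a log2 fold change of 15.1 with an adjusted p of 0.0186, and in these vehicle spleens it rested on 1 read in labelled knockout and 0 in wild type. Dct, an enzyme gene of melanin synthesis, had 0, 1.83, 1.01, 0 and 240 in labelled knockout, against 335, 4.18, 519 and 226 in wild type. High and near-zero libraries occurred in both groups (limma adjusted p = 0.375). Of the 4 melanocyte genes tested, 3 had a lower and 1 a higher mean, 2 of them lower at an unadjusted p under 0.05. Their median was -2.29, the lowest of all lists, and -3.29 to -1.80 with 1 library left out. After PCB-153 the median of these genes was 1.59. The 9 adipocyte genes all had a higher mean, but their median of 0.53 came to -0.17 without wild-type replicate 4.

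**Figure D5:**
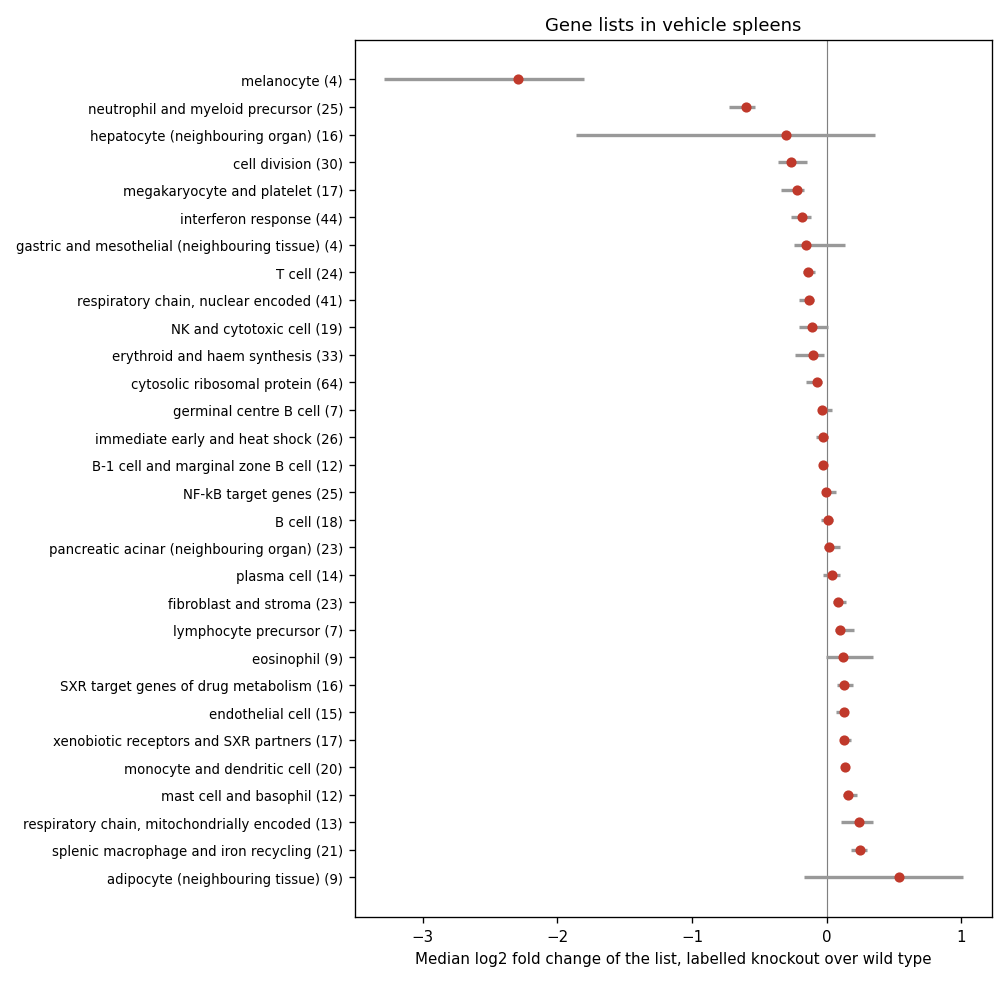
Median log2 fold change (labelled knockout over wild type, vehicle spleens) of each gene list, with the number of tested genes in brackets; dots are medians and grey lines their range when each library is left out in turn. Neutrophil genes are lowest among lists with a narrow range at -0.60, and the hepatocyte, adipocyte and melanocyte lists have wide ranges.

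The same genes were looked up in the other exposure and in liver. PCB-153 spleens, which share no library with the vehicle spleens, had 30 calls by limma (0.157%), among them Nr1i2 (5.38), Pla1a (2.29), Ift57 (1.48), Dubr (-1.36) and Cd96 (-1.02). Rdh16f1 had 64.9 ± 10.8 in labelled knockout and 42.8 ± 7.10 in wild type after PCB-153 (SD, n = 5 each, log2 fold change 0.59, limma adjusted p = 0.119). In vehicle livers 98 of 16155 genes were called (0.607%), and 2 of the 6 were among them. Ift57 had 43.5 ± 11.1 in knockout and 9.81 ± 1.77 in wild-type livers (SD, n = 5 each, log2 fold change 2.02, limma adjusted p = 0.000366), the direction seen in spleen. Nr1i2 was called in both tissues in opposite directions. Pla1a, far more abundant in liver, had 723 ± 115 in knockout and 918 ± 78.0 in wild-type livers (log2 fold change -0.36, limma adjusted p = 0.254).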

How the data were processed

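Per the labels' protocols, frozen tissue went through Trizol extraction and an Illumina TruSeq kit, stranded in one text and not in another. Listed in the submitters' processing notes are STAR 2.6.0, featureCounts, DESeq2, FastQC and mm10. No source used here gives the strand setting or annotation, so antisense partners are not separated. The deposited values are a signal: the authors scaled each gene's reads by a single size factor for the library, and 100% of values came out as whole reads within 0.05. The authors' deposited DESeq2 table of this comparison holds log2 fold changes and p-values. Restored symbols numbered 26, which had been turned into dates.

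Groups came from sample titles. Genes with a mean of at least 10 were tested on log2(value + 1), which understates the change of low genes, with limma 3.58.1 (eBayes with trend, R 4.3.3) in 1 fit over 19 spleens, two-sided, Benjamini-Hochberg, called at an adjusted p under 0.05. The same fit gave the PCB-153 contrast and the interaction; livers had a fit of their own. The median standard error was 0.13. Replicates differed by more than counting error (chi-square per degree of freedom 4.69 to 42.9). Alternatives were other pseudocounts, filters and scaling, a fit of both vehicle groups alone, a replicate block, each library left out, and edgeR 4.0.16 and DESeq2 1.42.0 on recovered reads; scripts were tested on simulated reads. Positions are GENCODE M21 (GRCm38), promoters RefSeq (GRCm38.p6), where Pla1a and Rdh16f1 were not matched. Members and lists were chosen with earlier results of these data known. The rule for names takes Nr1i2, limma's calls, at most the 20 smallest p among the calls of the authors, edgeR and DESeq2, the 3 smallest p of each list, the 8 largest rises and falls with a mean of at least 50 and an unadjusted p under 0.01, fixed markers and neighbours of Nr1i2. The text gives part of these, and genes outside the rule are said to be, or serve as list members.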

Additional observations from a re-analysis of the deposited data

Results flagged for a closer look

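In 10 cases a gene's highest or lowest library stood far from the others of its group by Dixon's test. Chance flags about 1 in 20 of the 152 groups screened.

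Of these, 5 were in labelled knockout replicate 5. There Cd79a at 7830, Cd3e at 732 and Cd8a at 1070 were the highest of that group, and Dct, at 240, was near 0 in the other 4. Frem1, an extracellular matrix gene, was lowest in the same library at 198. Cdc20 was highest in labelled knockout replicate 1 at 1440.

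In wild type, Nr1i2 was counted in replicate 4 alone, at 2.27. Mcpt4 was lowest in replicate 1 at 4.4, Cd79a lowest in replicate 3 at 5960, and mt-Atp8 lowest in replicate 5 at 5300.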

How the results depend on the processing

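The 6 calls under vehicle became 9 without a filter on low values, gaining Cfap44, Slc9c1 and Tagln3 on chromosome 16 and Platr11 and losing Rdh16f1. They became 3 with a minimum mean of 50, which leaves Nr1i2 and Pla1a untested, 39 with DESeq2 and 24 with DESeq2 without a filter, an alternative chosen after seeing the data. Leaving out 1 library gave 4 to 22 calls, with 22 without wild-type replicate 4 and 9 without labelled knockout replicate 5. The 30 calls after PCB-153 became 18 with a replicate block and 65 with edgeR, and the 0 calls of the interaction 34 with DESeq2; the cause was not tested. Same-numbered libraries did not pair (correlations of -0.12 to 0.07), and the replicate block gave 6 calls under vehicle, 0 for the interaction and 106 in liver against 98. Nr1i2, Ift57, Pla1a and Dubr were called in every alternative that tested them. Rdh16f1 was not called without a filter, with a minimum mean of 50, with quantile normalisation, with both vehicle groups alone or with the block, and Cd96 not with both vehicle groups alone. Among the 76 genes recomputed under each alternative, Cd79a and Cd3e turned sign: Cd79a (0.00) came to -0.021 with the block and ranged from -0.066 to 0.031 with 1 library left out, and Cd3e (-0.05) from -0.127 to 0.016. With 1 library left out, the median of the adipocyte list ranged from -0.17 to 1.01 and that of the hepatocyte list from -1.86 to 0.36. Depth limits genes such as Cfap44 and Slc9c1, counted in 2 reads and 1 read in wild type.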

Other observations

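Some genes off chromosome 16 that the authors' deposited table or the size rule names belong to none of the groups above. Wdfy1, a gene of endosomal signalling, had 660 ± 81.4 in labelled knockout and 467 ± 77.3 in wild type (SD, n = 5 and 4, log2 fold change 0.50, limma adjusted p = 0.239). Frem1, an extracellular matrix gene, differed by 0.56 and the decapping enzyme gene Dcps by -0.34, both with a limma adjusted p of 0.233, and both were called without wild-type replicate 4 (adjusted p = 0.0452). Cyp4b1, a cytochrome P450 gene, had 171 ± 75.3 in labelled knockout and 81.3 ± 15.2 in wild type (0.98, limma adjusted p = 0.353). The ubiquitin-like gene Ubd and the collagen gene Col28a1 each differed by -0.83. Mum1, named after its values were seen, is listed in the authors' deposited table with a log2 fold change of -0.19 (adjusted p = 0.0468).

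Of the other lists, all 15 endothelial genes had a higher mean, none at an unadjusted p under 0.05, with a median of 0.13. The 23 fibroblast and stroma genes had a median of 0.08 with 2 higher at such a p, and the 26 immediate early and heat shock genes one of -0.03 with 1. The 12 genes of B-1 and marginal zone B cells had a median of -0.02 with 3 higher at such a p, a count that came to 0 without labelled knockout replicate 1 or wild-type replicate 3 or 5. Medians were -0.04 for 7 genes of germinal centre B cells, 0.10 for 7 of lymphocyte precursors and 0.12 for 9 of eosinophils. The 4 gastric and mesothelial genes tested had a median of -0.16.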
